A study of Mus musculus with 20 samples.

Results

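Zp1, Zp2 and Zp3, the genes of the mouse zona pellucida, were followed from the oocyte to the blastocyst. Members were all array probe sets annotated to these symbols, which gave 3 probe sets, 1 per gene, among 22626 probe sets for 12393 genes. All 3 passed the filter on low intensity and were tested. The groups were mouse oocytes, 1-cell, 2-cell and 8-cell embryos and blastocysts, each measured on 4 MOE430A expression arrays, 20 arrays in all. Total RNA had been amplified by repeated in vitro transcription in every group. The labels tell the groups apart by stage, and give no strain, age, maturity of the oocyte, number of embryos or collection behind an array. Nothing says that the 4 arrays of a stage came from separate collections, so p-values reflect the spread among these arrays alone, and that spread may be technical.

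The zona pellucida is the glycoprotein coat that surrounds the mammalian egg and the early embryo until hatching. The growing oocyte makes it, from long filaments of ZP2 and ZP3 that ZP1 joins by cross-links. In the mouse, the coat does not form without ZP3 and is thin without ZP1, and sperm bind near the N-terminus of ZP2. After fertilization the protease ovastacin, released from cortical granules, cuts ZP2, and sperm no longer bind. The transcription factor FIGLA drives these genes in mouse oocytes through E-box motifs in their promoters.

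The genes lie on separate chromosomes. In the GRCm38.p6 assembly of RefSeq, Zp1 spans chr19:10914296-10920601, Zp2 spans chr7:120126762-120145291 and Zp3 spans chr5:135980105-135988624. The RefSeq promoter table matched 1 of the 3 members, Zp3. Its 250 bases before the transcription start (chr5:135979855-135980104, plus strand) are shown because the zona genes are known to share a regulator. Capitals mark matches to the general E-box, CANNTG. They also mark the TATA motif, spelled TATAA. Both strands were searched.
Zp3 promoter: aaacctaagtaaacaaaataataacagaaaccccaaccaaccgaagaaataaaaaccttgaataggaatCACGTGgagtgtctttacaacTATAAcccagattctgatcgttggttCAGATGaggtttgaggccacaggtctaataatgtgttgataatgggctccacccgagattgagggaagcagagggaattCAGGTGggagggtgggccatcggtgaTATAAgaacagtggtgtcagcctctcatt
The window holds 3 E-box matches. The first, CACGTG, begins 181 bases before the start. The second, at 134 bases, reads CAGATG. The third, at 55 bases, reads CAGGTG. It holds 2 TATAA matches, at 160 and 29 bases before the start, and none of the 5 matches overlaps another. Of 32851 promoter windows of this length, 66.2% hold an E-box by this spelling and 22.8% hold the TATA motif. A match is a description of the letters, not of a bound site.

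Intensities were comparable between arrays only through the authors' scaling of each array to a common trimmed mean. The median intensity per array ran from 36.5 to 58.1, and arrays of 1 stage correlated at 0.931 or more across probe sets, which are not independent replicates. The geometric mean of the added hybridization controls was 1265 to 2154 on 1-cell arrays, against 552 to 961 on oocyte arrays. The 1-cell arrays also carried 18S ribosomal RNA signal of 11006.5 to 15355.4, against 143.2 to 261.4 on oocyte arrays. The summed intensity of the stage markers Gdf9, Bmp15, Mos and Nlrp5 was 59.4 to 101.9 in blastocysts, against 14354.8 to 17706.7 in oocytes. On 1-cell arrays it was 12999.8 to 14656.5, so this sum does not separate 1-cell embryos from oocytes. Zfp352, Tdpoz1 and Tcstv3 summed to 2295.1 to 3982.5 at the 2-cell stage and to at most 159.7 at any other. Nanog, Gata6, Cdx2, Krt8, Krt18 and Dppa4 summed to 1755 to 1979.3 at the 2-cell stage, 3742.6 to 4544 at the 8-cell stage and 11240.7 to 12985.6 in blastocysts. Of these 6, 4 were called higher and 2 lower in blastocysts relative to 8-cell embryos, where 19.5% of all probe sets were called higher and 25.5% lower. Of 18 cumulus and granulosa markers, 14 were on the array and 8 were tested. Of the 8, limma called 0 in 1-cell embryos relative to oocytes at adjusted p under 0.05, where 15.3% of all probe sets were called lower and 16% higher. This count uses the brightest probe set of each gene. Of the 3 tested probe sets of Kitl, 1 was called lower at this comparison, with changes from -0.99 to -0.10 over the 3. With arrays scaled to the hybridization controls, 7 of the 8 were called lower in 1-cell embryos relative to oocytes. Under that scaling 8100 of all 17208 tested probe sets were called at this comparison, 0.605% of them higher. The median change of all probe sets became -0.72 in place of 0.11.

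In oocytes the zona transcripts were among the brightest probe sets on the array. Zp1 had intensities of 2319, 1794.2, 2029.7 and 1985.7 on the 4 oocyte arrays. Zp2 had 5259.1, 5632.9, 4827.4 and 5858.2 there, and Zp3 had 5830.4, 4961.8, 5394.8 and 5768. These values put Zp1 between the 98.0th and 98.9th percentile of probe sets on its arrays, and Zp2 and Zp3 at or above the 99.8th. The intensities of different probe sets are not set against each other, because probe sets differ in response. The coefficient of variation over the oocyte arrays was 10.7% for Zp1, 8.37% for Zp2 and 7.30% for Zp3.

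At the 1-cell stage all 3 transcripts had lost most of their signal. Zp1 had intensities of 335.6, 276.8, 339 and 373.8 on the 1-cell arrays, which average 16.3% ± 1.98 of the oocyte mean (SD, n = 4). Zp2 had 592.6, 567.1, 558.2 and 611, which average 10.8% ± 0.447. Zp3 had 896, 1159.5, 1339.2 and 1310.7, which average 21.4% ± 3.70. No 1-cell array overlapped an oocyte array for any of the 3 genes, and the coefficient of variation over the 1-cell arrays was 4.14% for Zp2, 12.1% for Zp1 and 17.2% for Zp3.

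Changes were tested with limma on log2(intensity + 12.15) in 1 fit of all stages and all 17208 tested probe sets, with Benjamini-Hochberg adjustment. On this scale, which understates the change of low signals, Zp1 fell by 2.58 ± 0.19 (SE, n = 4 arrays per stage) from the oocyte to the 1-cell stage (limma adjusted p = 2.82e-11). Zp2 fell by 3.18 ± 0.19 (limma adjusted p = 3.19e-13) and Zp3 by 2.22 ± 0.18 (limma adjusted p = 1.39e-10). All 3 members were called lower, where 15.3% of tested probe sets were called lower and 14.9% had no overlap in this direction. Over all tested probe sets the median change was 0.11, and a lower change than that of the member was found in 1.20% of them for Zp1, 0.482% for Zp2 and 2.02% for Zp3. Among 368 probe sets with an oocyte mean of at least 2032, a cut chosen after the values were seen, 37% were called lower and 42 (11.4%) had a change at or below that of Zp3. Whether less of a transcript or more of other RNA in the sample lowers such a signal cannot be told apart, and in bulk samples fewer cells of a type and less RNA per cell cannot be told apart.

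**Figure D1:**
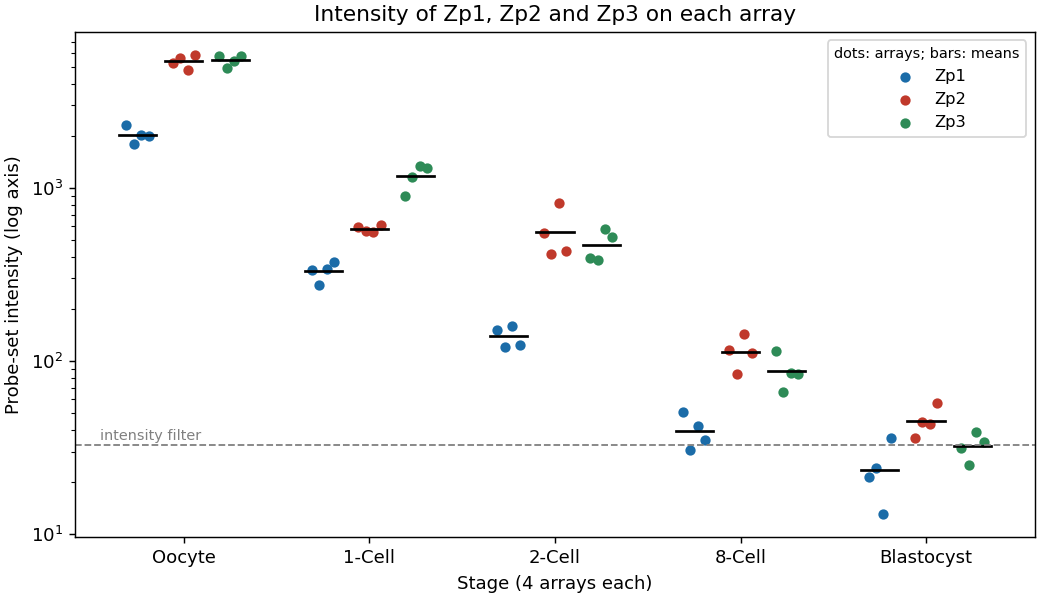
Probe-set intensity (log axis) of Zp1, Zp2 and Zp3 at the 5 stages in developmental order; dots are single arrays, bars are means of 4 arrays, and the dashed line is the intensity filter at 32.9. Mean Zp3 intensity is 5489 in oocytes, 1176 in 1-cell, 468 in 2-cell and 87.5 in 8-cell embryos and 32.5 in blastocysts, and the Zp2 values of 1-cell and 2-cell embryos overlap.

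From the 1-cell to the 2-cell stage Zp1 and Zp3 fell, and Zp2 was not called. Zp1 had 151.1, 120.7, 159.7 and 123.7 on 2-cell arrays, and Zp3 had 391.9, 381.6, 578.6 and 518.6, each gene with all 2-cell arrays below all 1-cell arrays. Here 2 of the 3 members were called lower, where 21.5% of tested probe sets were called lower and 19.9% had no overlap. Zp1 fell by 1.19 ± 0.19 (limma adjusted p = 7.15e-06), to 6.83% ± 0.961 of the oocyte mean (SD, n = 4). Zp3 fell by 1.31 ± 0.18 (limma adjusted p = 5.59e-07), to 8.52% ± 1.76.

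Zp2 had 551.4, 414.5, 816 and 434.3 on the 2-cell arrays, a range that encloses its 1-cell values. Its log2 change was -0.12 ± 0.19 (limma adjusted p = 0.644), with a 95% interval from -0.51 to 0.26. Its mean was 10.3% ± 3.43 of the oocyte mean at the 2-cell stage and 10.8% ± 0.447 at the 1-cell stage (SD, n = 4). The array at 816 was the 2-cell replicate 3, and without it the change was -0.32 (limma adjusted p = 0.156). Without 2-cell replicate 2 it was -0.0028 (limma adjusted p = 0.993).

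From the 2-cell to the 8-cell stage all 3 fell. Zp1 had 51, 30.6, 41.9 and 35.2 on the 8-cell arrays, Zp2 had 115.6, 84, 142.9 and 110.6, and Zp3 had 114.9, 66, 84.9 and 84.3. Every 8-cell array lay below every 2-cell array, which held for 22.1% of tested probe sets. The log2 change was -1.55 ± 0.19 for Zp1 (limma adjusted p = 9.93e-08), -2.14 ± 0.19 for Zp2 (limma adjusted p = 1.92e-10) and -2.27 ± 0.18 for Zp3 (limma adjusted p = 2.67e-11), where 25.2% of probe sets were called lower. At the 8-cell stage the genes stood at 1.95% ± 0.436, 2.10% ± 0.447 and 1.59% ± 0.369 of their oocyte means, in the order Zp1, Zp2, Zp3 (SD, n = 4).

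By the blastocyst stage the signals lay between percentiles 25.1 and 53.7 of the probe sets on their arrays. Zp1 had 21.4, 24.2, 13.1 and 35.7 on blastocyst arrays, and only 1 of the 4 was above the intensity filter of 32.9. Zp2 had 35.9, 44.5, 43.1 and 57.3, all above the filter, and Zp3 had 31.6, 25.1, 39 and 34.2, of which 2 were above it. No detection calls were used, so these values give no answer on whether the transcripts are present.

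Between the 8-cell stage and the blastocyst, Zp2 fell by 1.12 ± 0.19 (limma adjusted p = 2.24e-05) and Zp3 fell by 1.15 ± 0.18 (limma adjusted p = 8.53e-06), both without overlap, where 25.5% of probe sets were called lower and 20% had no overlap. Zp1 fell by 0.56 ± 0.19 (limma adjusted p = 0.0193), with overlapping arrays. The Zp1 call ended without 8-cell replicate 1 (-0.46, limma adjusted p = 0.0737) and without blastocyst replicate 3 (-0.40, limma adjusted p = 0.0948). With arrays scaled to the hybridization controls no member was called at this transition, with changes of 0.20 for Zp1, -0.22 for Zp2 and -0.28 for Zp3, while the median of all probe sets became 0.63 in place of -0.21.

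**Figure D2:**
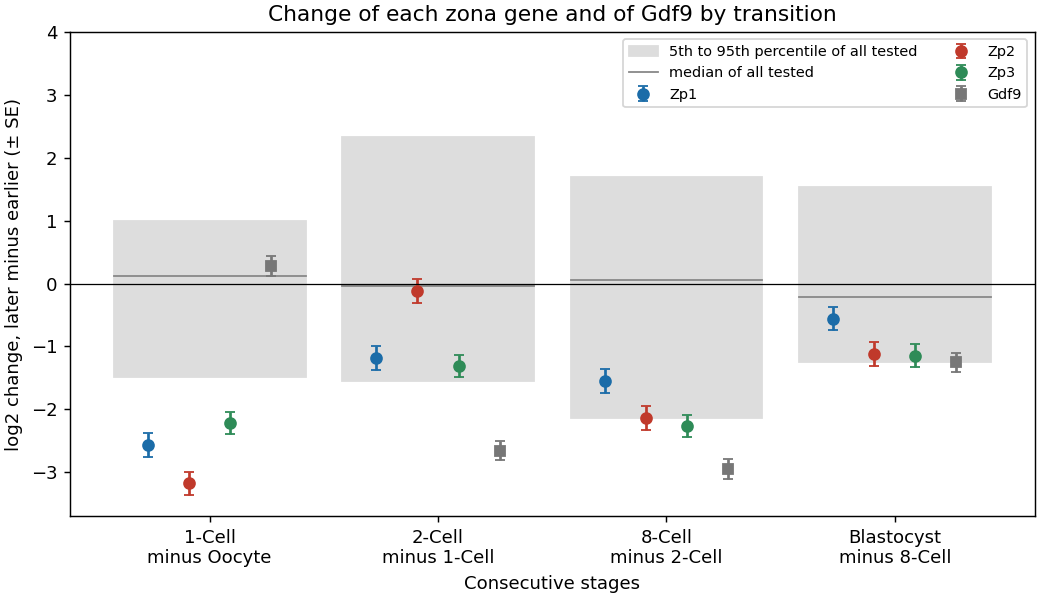
log2 change, later minus earlier stage, with moderated SE, of Zp1, Zp2, Zp3 and the oocyte growth factor gene Gdf9 at the 4 consecutive transitions; grey boxes span the 5th to 95th percentile of 17208 tested probe sets and the grey line is their median. The zona genes lie below the box at the 1-cell stage (-2.22 to -3.18), where Gdf9 is at 0.28, and Zp2 lies at -0.12 at the 2-cell stage.

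Over the whole course, Zp1 fell by 5.87 ± 0.19, Zp2 by 6.57 ± 0.19 and Zp3 by 6.95 ± 0.18 from the oocyte to the blastocyst (limma adjusted p = 8.71e-20, 5.58e-21 and 7.60e-22, n = 4 arrays per stage), where 30.7% of probe sets were called lower and 27.8% had no overlap. The blastocyst means were 1.16% ± 0.460 of the oocyte mean for Zp1, 0.838% ± 0.165 for Zp2 and 0.592% ± 0.106 for Zp3 (SD). Among the same 368 bright probe sets 64.9% were called lower in blastocysts relative to oocytes, and 42 (11.4%) had a change at or below that of Zp1. The 3′ to 5′ ratio of the actin probe sets, a sign of RNA quality and amplification, was 1.52 to 2.22 on blastocyst arrays, against 4.22 to 5.07 on oocyte arrays and 3.46 to 3.90 on 8-cell arrays, and its part in the changes was not tested. Mean levels followed the order oocyte, 1-cell, 2-cell, 8-cell and blastocyst in each gene. Of the 30 tests of a gene between 2 stages, 29 were called, and the exception was Zp2 between the 1-cell and 2-cell stages. For the other pairs of stages, the share of all probe sets called lower was 20.8% in 2-cell embryos and 28.6% in 8-cell embryos relative to oocytes. It was 29.7% in 8-cell embryos and 35.9% in blastocysts relative to 1-cell embryos, and 32.8% in blastocysts relative to 2-cell embryos.

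Whether the genes changed unequally was asked from the log2 difference between a pair of members on the same array, which array scaling moves only through the added constant. With 4 arrays against 4 the smallest two-sided exact permutation p is 0.0286, and 15 such tests were made over 3 pairs and 5 comparisons. At the 1-cell stage relative to the oocyte, the Zp2 minus Zp1 difference changed by -0.61 ± 0.14 and the Zp2 minus Zp3 difference by -0.96 ± 0.16 (SE, n = 4, exact permutation p = 0.0286 each). At the 2-cell relative to the 1-cell stage both changed the other way, by 1.07 ± 0.15 for Zp2 minus Zp1 and 1.19 ± 0.22 for Zp2 minus Zp3 (exact permutation p = 0.0286 each). Zp2 thus had the deepest measured fall of the members at the 1-cell stage and the smallest change at the 2-cell stage.

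The Zp3 minus Zp1 difference changed by -0.13 ± 0.20 at the 2-cell stage (exact permutation p = 0.543) and by -0.72 ± 0.15 at the 8-cell stage (exact permutation p = 0.0286). From the oocyte to the blastocyst it changed by -1.08 ± 0.25 (exact permutation p = 0.0286), while Zp2 minus Zp3 changed by 0.38 ± 0.16 (exact permutation p = 0.0857). In 8 of the 15 tests the arrays of the 2 stages did not overlap, which gave the smallest p, but after Benjamini-Hochberg adjustment over the 15 tests that p became 0.0536 and 0 passed 0.05. With a pseudocount of 48.6 in place of 12.15, 10 passed, as did 10 without blastocyst replicate 3 and 9 without 1-cell replicate 1. Here p is the share of divisions of the arrays with an absolute difference at least as large, which can reach 0.0286 with 3 arrays against 4 as well. With p as the doubled smaller tail, a setting chosen after seeing the data, 0 passed whichever array was left out.

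**Figure D3:**
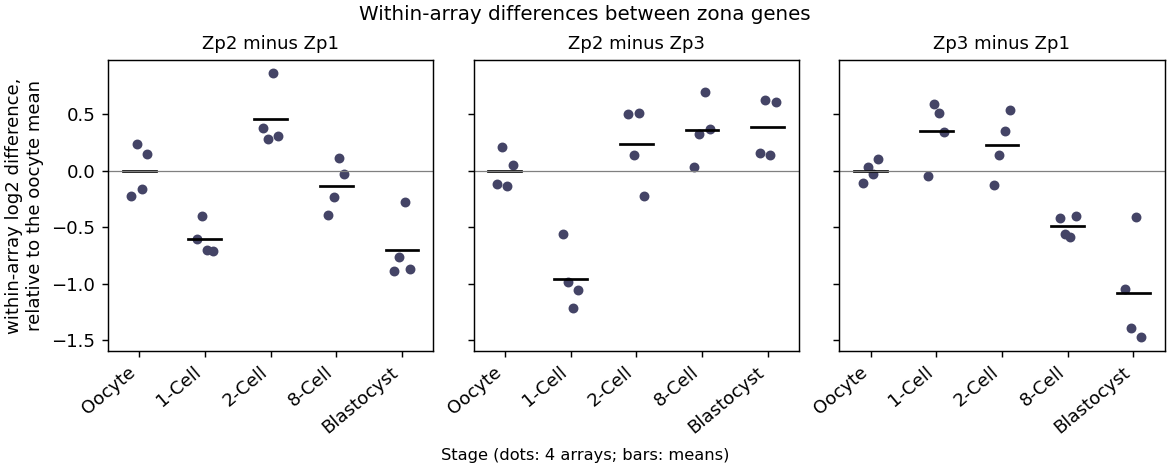
Within-array differences in log2(intensity + 12.15) between pairs of zona genes, relative to the oocyte mean, at the 5 stages in developmental order; dots are single arrays and bars are means of 4 arrays. The panel of Zp2 minus Zp3 is lower at the 1-cell stage than in oocytes by 0.96 and higher at the 2-cell than at the 1-cell stage by 1.19, while neighbouring stages overlap from the 2-cell stage on.

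Gdf9, which encodes a growth factor that the oocyte secretes to its follicle cells, is also made in the oocyte. Gdf9 was chosen as a reference with its course on these arrays already known. Its intensity averaged 7590.2 ± 709 in oocytes, 9208 ± 1021 in 1-cell embryos, 1448 ± 187 in 2-cell embryos, 177 ± 31.1 in 8-cell embryos and 67.0 ± 12.04 in blastocysts (SD, n = 4). At the 1-cell stage, where its change was 0.28 (limma adjusted p = 0.192), the zona gene minus Gdf9 difference changed by -2.85 ± 0.19 for Zp1, -3.46 ± 0.12 for Zp2 and -2.50 ± 0.18 for Zp3 (SE, n = 4, exact permutation p = 0.0286 each). At the 2-cell stage it changed by 1.47 ± 0.19, 2.54 ± 0.25 and 1.35 ± 0.28 in the same order of genes (exact permutation p = 0.0286 each). From the oocyte to the blastocyst the members differed. The difference changed by 0.72 ± 0.17 for Zp1 (exact permutation p = 0.0286), by 0.03 ± 0.10 for Zp2 (exact permutation p = 0.714) and by -0.36 ± 0.19 for Zp3 (exact permutation p = 0.0857). After adjustment over these 15 tests 0 passed 0.05, and the smallest adjusted p was 0.0536.

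The list of other oocyte-expressed genes had 28 entries, of which 18 were tested. At the 1-cell stage relative to the oocyte, 4 of the 18 were called lower and 11 higher, with a median change of 0.65. Of all probe sets, 15.3% were called lower and 16% higher there. The deepest fall among the 18 was -1.53 for Mos, whose kinase keeps unfertilized eggs arrested in meiosis, and the next was -1.17 for Nlrp5, a subcortical maternal complex gene. Each zona gene had a lower change than these. The 11 higher calls became 4 with quantile normalization and 0 with scaling to the hybridization controls, while the lower calls became 4 and 7. Under the control scaling 8100 of 17208 tested probe sets were called at this comparison, 0.605% of them higher. At the 2-cell stage 14 of the 18 were called lower (median -1.34), and at the 8-cell stage 17 (median -3.30). In blastocysts relative to 8-cell embryos 12 were called lower (median -1.03), which became 5 with scaling to the hybridization controls, where 95.1% of all calls were higher. Of all probe sets, 21.5%, 25.2% and 25.5% were called lower at these transitions, in the same order. From the oocyte to the blastocyst all 18 tested genes fell, with a median of -6.35, against -5.87 to -6.95 for the zona genes. Of all probe sets, 30.7% were called lower there.

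**Figure D4:**
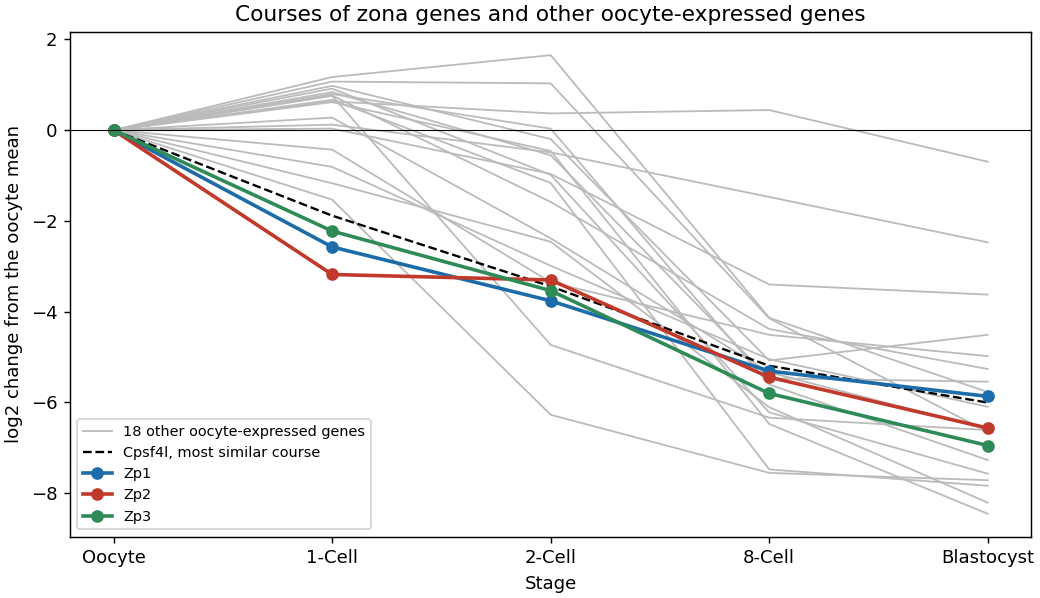
Mean log2 change from the oocyte mean (n = 4 arrays per stage) of Zp1, Zp2 and Zp3, drawn in colour, and of 18 other oocyte-expressed genes, drawn in grey, at the 5 stages in developmental order; the dashed line is Cpsf4l, the gene with the most similar course. At the 1-cell stage the zona genes lie at -2.22 to -3.18 and the lowest grey line at -1.53, and at the blastocyst stage the zona genes lie within the range of the grey lines.

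The genes with the most similar course were sought among 7878 tested probe sets. These had 1 gene symbol and a mean oocyte intensity above the median of tested probe sets. Likeness was measured by the root mean square difference of log2 change from the zona gene mean over the 4 later stages. The zona genes lay at 0.338 (Zp1), 0.292 (Zp2) and 0.357 (Zp3), values that are small by construction because these genes make up the mean. The nearest other genes were Cpsf4l at 0.481 and Setd4 at 0.548, followed by Gja4 at 0.874, Oas1h at 0.902, Gdpd1 at 0.932, Aass at 0.991, Ninj2 at 0.999 and Tle6 at 1.01. Cpsf4l averaged 3351 ± 494 in oocytes, 960.0 ± 431 in 1-cell embryos, 298 ± 53.0 in 2-cell embryos, 80.8 ± 21.5 in 8-cell embryos and 40.3 ± 8.52 in blastocysts (SD, n = 4). Setd4 averaged 5031 ± 715, 1090 ± 316, 233 ± 77.1, 118 ± 17.7 and 65.7 ± 9.92 at the same stages. Gja4, the gap junction gene that couples the oocyte to its granulosa cells, had a change of -1.14 at the 1-cell stage and -5.84 in blastocysts relative to the oocyte. These genes were picked for their likeness, so their courses are a description, and Cpsf4l, Setd4 and Gdpd1 have further probe sets.

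The list of transcription regulators of oocyte genes had 8 entries, of which 4 were tested. Of these, 3 were called lower and 1 higher in 1-cell embryos relative to oocytes, where 15.3% of all probe sets were called lower and 16% higher. Figla, the E-box factor of the zona promoters, averaged 37.4 ± 13.1 at the 1-cell stage, against 145 ± 3.14 in oocytes, and fell by 1.70 ± 0.24 (SE, limma adjusted p = 2.16e-06, n = 4). Nobox, an oocyte homeobox gene, fell to 224 ± 75.0, against 642 ± 139 in oocytes (limma adjusted p = 0.00122). Lhx8 fell by 0.60 ± 0.19 (limma adjusted p = 0.0179), whereas Foxo3 rose by 0.92 ± 0.21 (limma adjusted p = 0.000971), on 3 of its 3 probe sets. With scaling to the hybridization controls the list held 0 higher calls at this comparison, where 0.605% of all calls were higher. At the 8-cell stage Lhx8 fell by 4.67 ± 0.19, to 3.85 ± 2.03 in 8-cell embryos, against 407 ± 129 in 2-cell embryos (limma adjusted p = 5.52e-17). From the oocyte to the blastocyst all 4 tested genes fell, where 30.7% of all probe sets were called lower.

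The list of zona modification and cortical granule genes had 12 entries, of which 8 were tested, and ovastacin (Astl) was not analysed here. In 1-cell embryos relative to oocytes 2 of 8 were called lower and 0 higher, where 15.3% of all probe sets were called lower and 16% higher. Calr, which encodes the calcium-binding chaperone calreticulin, averaged 511 ± 178 at the 1-cell stage, against 1571 ± 81.1 in oocytes, and fell by 1.65 ± 0.19 (SE, limma adjusted p = 6.26e-08, n = 4) on 3 of its 3 probe sets. At the 2-cell stage Furin, a proprotein convertase, fell by 1.88 ± 0.23 (limma adjusted p = 1.05e-07). The list held 2 lower calls and 1 higher there, where 21.5% of all probe sets were called lower and 23.2% higher. Over the oocyte to blastocyst comparison 3 fell and 1 rose, where 30.7% of all probe sets were called lower and 28.5% higher. The list median was -0.42, against -0.12 over all probe sets. With scaling to the hybridization controls the calls were 4 lower and 0 higher in blastocysts relative to oocytes, and 4 lower at the 1-cell stage. Of all calls under that scaling, 37.6% were higher in the first comparison and 0.605% in the second. Quantile normalization gave 4 lower calls at the 2-cell stage.

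The list of sperm and egg surface genes had 8 entries, of which 7 were tested. Izumo1r, which encodes the egg receptor for sperm IZUMO1, had a change of -0.10 at the 1-cell stage (limma adjusted p = 0.84, n = 4), at which each zona gene fell. At the 2-cell stage Izumo1r fell by 1.68 ± 0.28 (SE, limma adjusted p = 9.93e-06), to 189 ± 59.1, against 624 ± 156 at the 1-cell stage. Cd9, an egg membrane tetraspanin needed for fusion, fell by 0.80 ± 0.20 at the 1-cell stage (limma adjusted p = 0.00232) and rose by 2.86 ± 0.20 at the 8-cell stage (limma adjusted p = 1.73e-12). Of the 7, the numbers called lower at the 4 successive transitions were 1, 3, 2 and 1, and the numbers called higher were 0, 0, 2 and 1. Of all probe sets, 15.3%, 21.5%, 25.2% and 25.5% were called lower there, and 16%, 23.2%, 23.2% and 19.5% higher. From the oocyte to the blastocyst 2 were called lower and 2 higher, with a median of 0.12. Of all probe sets, 30.7% were called lower and 28.5% higher at that comparison. Over the successive transitions, the first lower count became 3 and the last higher count 3 with scaling to the hybridization controls. Of all calls under that scaling, 0.605% were higher at the first transition and 95.1% at the last. The last lower count became 2 with quantile normalization.

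The list of proteases linked to hatching had 9 entries, of which 8 were tested. At the 1-cell stage 4 of the 8 were called lower and 0 higher, where 15.3% of all probe sets were called lower and 16% higher. The lysosomal protease gene Ctsl (cathepsin L) fell by 1.68 ± 0.19, Prss29 fell by 1.26 ± 0.36 on 1 of its 2 tested probe sets, and Ctsb (cathepsin B) fell by 1.01 ± 0.25 on 1 of its 3. Plat, tissue plasminogen activator, averaged 2418 ± 713 at the 1-cell stage, against 4157 ± 129 in oocytes, and fell by 0.83 ± 0.26 there (SE, limma adjusted p = 0.0145, n = 4) and fell by 2.97 ± 0.26 at the 2-cell stage (limma adjusted p = 2.1e-10). Ctsl averaged 3784 ± 587 at the 2-cell stage, against 15.8 ± 4.69 at the 1-cell stage, and rose by 7.09 ± 0.19 (limma adjusted p = 1.27e-20). Ctsb averaged 1235 ± 394 at the 2-cell stage, against 125 ± 34.4 at the 1-cell stage, and rose by 3.16 ± 0.25 (limma adjusted p = 3.12e-11) on 2 of its 3 tested probe sets. Between the 8-cell stage and the blastocyst, Tmprss2 rose by 3.21 ± 0.22 (limma adjusted p = 5.96e-12) and Prss8 by 2.85 ± 0.32 (limma adjusted p = 5.34e-08), both membrane serine proteases, and 19.5% of all probe sets were called higher. At the same transition 2 of the 8 were called lower, where 25.5% of all probe sets were. Ctsb had a change of -1.911 (limma adjusted p = 6.84e-07), on 2 of its 3 tested probe sets. Ctsl had a change of -1.265 (limma adjusted p = 6.61e-06). The list median there was -0.458. With scaling to the hybridization controls the calls were 3 higher and 1 lower, where 95.1% of all calls were higher.

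The zona pellucida domain is a polymerization module of many extracellular proteins, and other genes that encode it formed a further list. Of 12 entries 6 were tested, and at the 1-cell stage 1 was called lower, Dmbt1, which fell by 1.61 ± 0.32 (SE, limma adjusted p = 0.000273, n = 4). That is 16.7% of the list, near the 15.3% of all probe sets called lower at this comparison. From the oocyte to the blastocyst 3 of the 6 were called lower, Dmbt1 at -2.56, Gp2 at -0.74 and Tectb at -0.67, where 30.7% of all probe sets were called lower. With the intensity filter at 71.8, 2 of the list were tested and 1 was called lower. The median change of the 6 was 0.26 at the 1-cell stage and -0.60 from the oocyte to the blastocyst.

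Markers of cells that can surround or accompany the egg were measured beside these results. The 14 cumulus and granulosa markers on the array summed to 453 to 683 on 1-cell arrays, against 580 to 830 on oocyte arrays. They summed to 1252 to 1985 on 8-cell arrays, against 619 to 807 on 2-cell arrays, and to 475 to 827 on blastocyst arrays. Nr5a2, 1 of these markers, had an 8-cell mean of 1081.5, while its 2-cell mean was 323 and its blastocyst mean 319. Among the 8 tested markers, Nr5a2 and Hsd17b1 (8-cell mean 49.0) were the only ones called higher than at the 2-cell stage, and 0 were called lower. Of all probe sets, 23.2% were called higher and 25.2% lower at that transition. In 1-cell embryos relative to oocytes, 0 of 4 tested sperm markers were called, where 15.3% of all probe sets were called lower and 16% higher. The sperm markers had sums of 157 to 305 on 1-cell arrays, against 135 to 199 on oocyte arrays. Of the 4 tested, 1 was called higher in 8-cell relative to 2-cell embryos, where 23.2% of all probe sets were. In blastocysts relative to 8-cell embryos 1 was called lower, where 25.5% of all probe sets were. The oviduct and blood markers summed to 226 to 3344 on 8-cell arrays, against 422 to 942 on 2-cell arrays and 200 to 299 on oocyte arrays. Ovgp1, 1 of these markers, averaged 58.5 ± 26.9 in oocytes, 495 ± 242 in 2-cell embryos and 865 ± 1495 in 8-cell embryos (SD, n = 4). Of the 5 tested, Ovgp1 was the only 1 called at the 2-cell stage (2.46 ± 0.68, SE, limma adjusted p = 0.00364), where 23.2% of all probe sets were called higher. The part of the markers of other cells in the zona gene changes was not tested.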

How the data were processed

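Per the labels, total RNA of each stage was amplified by repeated in vitro transcription and measured on MOE430A arrays, 4 per stage. The deposited values are probe-set intensities on a linear scale, and the authors' scaling gave each array a trimmed mean of 150.05 to 150.08 (2% trimmed at each end), as read from the values. For the software, the background correction and any detection call, the record is the same: not given in the sources used here. Of 190 pairs of arrays 0 held identical values. Gene names came from the platform annotation, updated through RefSeq (GRCm38.p6); of 22626 probe sets that are not controls, 20380 have 1 symbol, 691 several and 1555 none.

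From the deposited intensities, log2(intensity + 12.15) was computed; the added constant equals 48.6, the median over all arrays, divided by 4. Testing was limited to the 17208 probe sets (10257 genes) with an intensity over 32.9, the 40th percentile of all values, on 4 or more arrays. Stages were compared with limma 3.58.1 in R 4.3.3 (lmFit and eBayes with trend, 1 fit of all arrays, 15 residual degrees of freedom), later minus earlier stage, two-sided, with Benjamini-Hochberg adjustment within each comparison and calls at adjusted p under 0.05. Errors of changes are moderated standard errors. The procedure was tested on simulated data. The number of arrays limits the precision.

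Members and gene lists were chosen with earlier results of these data known. The text names the members, up to 4 genes per list and comparison with the largest called changes first, Gdf9, and the 8 genes most similar in course. The uncalled change of Izumo1r at the 1-cell stage was singled out after its value was seen, as was the call of a further Kitl probe set. Among several tested probe sets of 1 gene, the brightest on the log2 scale was used.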

Additional observations from a re-analysis of the deposited data

How the results depend on the processing

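Over 11 other settings of normalization, pseudocount, filter, fit and block and over leaving out each array, 456 of 465 alternative values of the members kept their side of the threshold, all but 1 with the same direction. The 1 was the uncalled change of Zp2 at the 2-cell stage, 0.08 with scaling to the hybridization controls. The 9 values that changed side or reversed lay in blastocysts relative to 8-cell embryos. There, Zp1 was -0.35 with quantile normalization (limma adjusted p = 0.133), -0.33 with median centring (0.159), -0.29 with the pseudocount of 48.6 (0.0906), -0.56 with the 2 stages alone (0.108) and 0.20, reversed, with scaling to the hybridization controls (0.644). Leaving out 1 array gave -0.71 to -0.40 for Zp1. With the same control scaling Zp2 was -0.22 (0.578) and Zp3 -0.28 (0.465). The cause was not tested. That scaling also raised the calls at the 1-cell stage to 8100, against 5399, of which 0.605% were higher, against 51.1%. The share of higher calls under it was 65.1% at the 2-cell stage, against 51.9%, 22.9% at the 8-cell stage, against 48.0%, 95.1% in blastocysts relative to 8-cell embryos, against 43.4%, and 37.6% in blastocysts relative to oocytes, against 48.1%. Median centring gave 63.0% in blastocysts relative to 8-cell embryos. With the pseudocount of 48.6, 10 of 15 differences between members and 10 of 15 from Gdf9 passed the adjusted threshold, against 0 each. Leaving out 1 array gave 0 to 10 between members (10 without blastocyst replicate 3, 9 without 1-cell replicate 1) and 0 to 9 from Gdf9 (9 without 2-cell replicate 3, 8-cell replicate 1 or blastocyst replicate 3). These counts became 0 with p as the doubled smaller tail, which cannot go below 0.0571 with 3 arrays against 4. With the replicate block, the probe sets called numbered 5403, 7698, 8310 and 7688 over the 4 successive transitions and 10206 between oocyte and blastocyst. Same-numbered arrays correlated at -0.16 to 0.178 over 40 pairs, 6 of them over 0.1, and 7 of 20 arrays correlated best with their own number, so the numbers were not treated as pairs. Zp1 and Zp3 in blastocysts lie near the intensity filter, which limits what their last change can show.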
